A study of Mus musculus and Rattus norvegicus with 35 samples.

Results

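Mouse hippocampus at postnatal day 10 (P10) was compared with hippocampus at postnatal day 1 (P1), in 2 RNA libraries per stage, 4 of the 35 samples of the series. The libraries were chosen by tissue and developmental stage as the labels give them. All 4 libraries were made from total RNA of C57BL/6 mice, extracted with TRIZOL, depleted of ribosomal RNA and read on an Illumina instrument, with no treatment or altered allele named. Sex, the number of animals and pooling are not given in the labels. P-values therefore measure the spread between libraries, which may be technical. The same tissue was sampled in 2 libraries at embryonic day 18 (E18) and 2 at postnatal day 30 (P30), and these 4 libraries helped to estimate the spread and served as the neighbouring stages.

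Most pyramidal neurons of the rodent hippocampus are born before birth, while the dentate gyrus goes on making granule cells afterwards. Axons and dendrites branch, excitatory and inhibitory synapses form in large numbers, and neuronal chloride is lowered so that GABA becomes inhibitory. Astrocytes mature and oligodendrocyte precursors begin to make myelin, a process that runs well beyond this interval. Circular RNAs (circRNAs) arise when the end of an exon is spliced back to the start of the same or an earlier exon. The closed loop has no free ends, is stable, and is common in transcripts of neuronal genes.

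Gene levels were in TPM, transcripts scaled by gene length to the same sum in every library. CircRNA levels were in RPM, reads over the back-splice junction scaled by a total of the library. Pairs of values are given as replicate 1 and replicate 2. A difference is P10 minus P1 on the log2(TPM + 1) scale, or on log2 of RPM plus the value of 1 read for circRNAs, with its standard error (SE). A feature was called higher or lower when limma's adjusted p was under 0.05. The 4 libraries held 15927 to 24345 circRNA reads, and 14323 to 14635 genes reached 1 TPM in them.

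The marker genes fitted the labelled tissue and order of stages. Camk2a, the alpha subunit of the calcium/calmodulin kinase of excitatory synapses, was at 25.7 and 32.2 TPM at P1 and 155 and 183 TPM at P10. Mbp, a major protein of compact myelin, was at 10.7 and 12.1 TPM at P1 and 125 and 259 TPM at P10. The P10 libraries were above the P1 libraries for both genes, and the P10 replicates differed more for Mbp than for Camk2a.

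Among the P1 and P10 libraries, P10 replicate 2 and P1 replicate 2 each stood apart in a few gene models. In P10 replicate 2, 14 satellite-repeat models held 1.31% of all TPM, against 0.0294% in P10 replicate 1 and 0.0444% and 0.00272% in the P1 libraries. P30 replicate 2 held more in these models, 9.95%, against 0.0795% in P30 replicate 1. It entered the shared spread and the step to P30, and no step contrast with P30 was fitted without it. Ttr, the thyroid hormone carrier made by choroid plexus, was at 263 and 13.7 TPM at P1 and 8.69 and 3429 TPM at P10. Of 13 tested genes of choroid plexus and ependyma, 9 were higher in P10 replicate 2 than in P10 replicate 1, and 6 were over 5 times higher. The list summed to 339.5 and 74.8 TPM at P1 and to 67.7 and 3596 TPM at P10. The folate receptor Folr1 was at 12.8 and 4.06 TPM at P1 and 6.33 and 71.4 TPM at P10, and the claudin Cldn2 at 1.03 and 0.615 TPM at P1 and 0.616 and 5.63 TPM at P10, both picked after their values were seen. In P1 replicate 2, Lars2, a mitochondrial leucyl-tRNA synthetase, held 1.25% of all TPM, with 291 and 12487 TPM at P1 and 28.4 and 158 TPM at P10. Lars2 fell by 4.80 (adjusted p 0.0304), a call that was lost with some libraries left out (adjusted p 0.16 to 0.168 without P1 replicate 2 or P10 replicate 1). Counts below are therefore also given without a library wherever that moves them by more than 1.5 times. Some counts were not repeated in this way. These are the comparison of steps within gene lists, the gene counts from E18 to P1, and the gene and circRNA counts from P10 to P30. The circRNA counts by host gene or gene list were not repeated either.

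Of 14693 genes tested, 2591 were higher at P10 (17.6%) and 2730 were lower (18.6%), with a median difference of -0.07. These percentages are the background against which every gene list is read. More than 2-fold differences of the stage means were found for 1398 of the higher and 1155 of the lower genes, and more than 8-fold differences for 109 and 15. The P1 and P10 libraries did not overlap in any called gene, that is in all 2591 higher and all 2730 lower ones. A lack of overlap in a called gene therefore adds nothing to its call. Without P10 replicate 2 the counts were 1584 higher and 1231 lower, and without P10 replicate 1 they were 1851 and 1715. With satellite, Ttr, globin and ribosomal models left out and TPM rescaled, 2390 were higher and 3600 lower, with a median of -0.14. Globin and ribosomal models were taken by the start of their symbols, so the kinase gene Rps6ka5 was left out with them. Any symbol that begins with mt- was left out too, and Lars2 was kept. Of the genes called in all libraries, 1563 higher and 1195 lower ones remained called without P10 replicate 2. In bulk tissue, more cells of a type and more RNA per cell cannot be told apart, here and in all gene groups below.

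Among named genes that reached a mean of 10 TPM, the largest rise was that of Cpne6, a calcium-dependent phospholipid-binding protein of dendritic spines. It stood at 3.58 and 2.82 TPM at P1 and 143 and 149.6 TPM at P10, a 45.7-fold difference of the means and a log2 difference of 5.14 (SE 0.15, adjusted p 4.99e-07). Next came S100b, a calcium-binding protein of astrocytes, at 2 and 2.12 TPM at P1 and 78 and 66.2 TPM at P10. Rasgrp1, a calcium- and diacylglycerol-regulated activator of Ras, was at 3.8 and 7.36 TPM at P1 and 124 and 159 TPM at P10. All 3 genes were under 8 TPM in both P1 libraries and above 60 TPM in both P10 libraries. Gpr37l1, a receptor of astrocytes, stood at 5.44 and 6.02 TPM at P1 and 132 and 133 TPM at P10, and Lynx1, a membrane-anchored modulator of nicotinic receptors, at 6.68 and 7.01 TPM at P1 and 129 and 151 TPM at P10. Gng13, a G protein gamma subunit, rose by 4.19 and Rasgrf1, a calcium-regulated Ras activator, by 3.67. Spink8, which marks CA1 pyramidal neurons, was at 1.87 and 0.839 TPM at P1 and 35.3 and 42.2 TPM at P10.

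**Figure D1:**
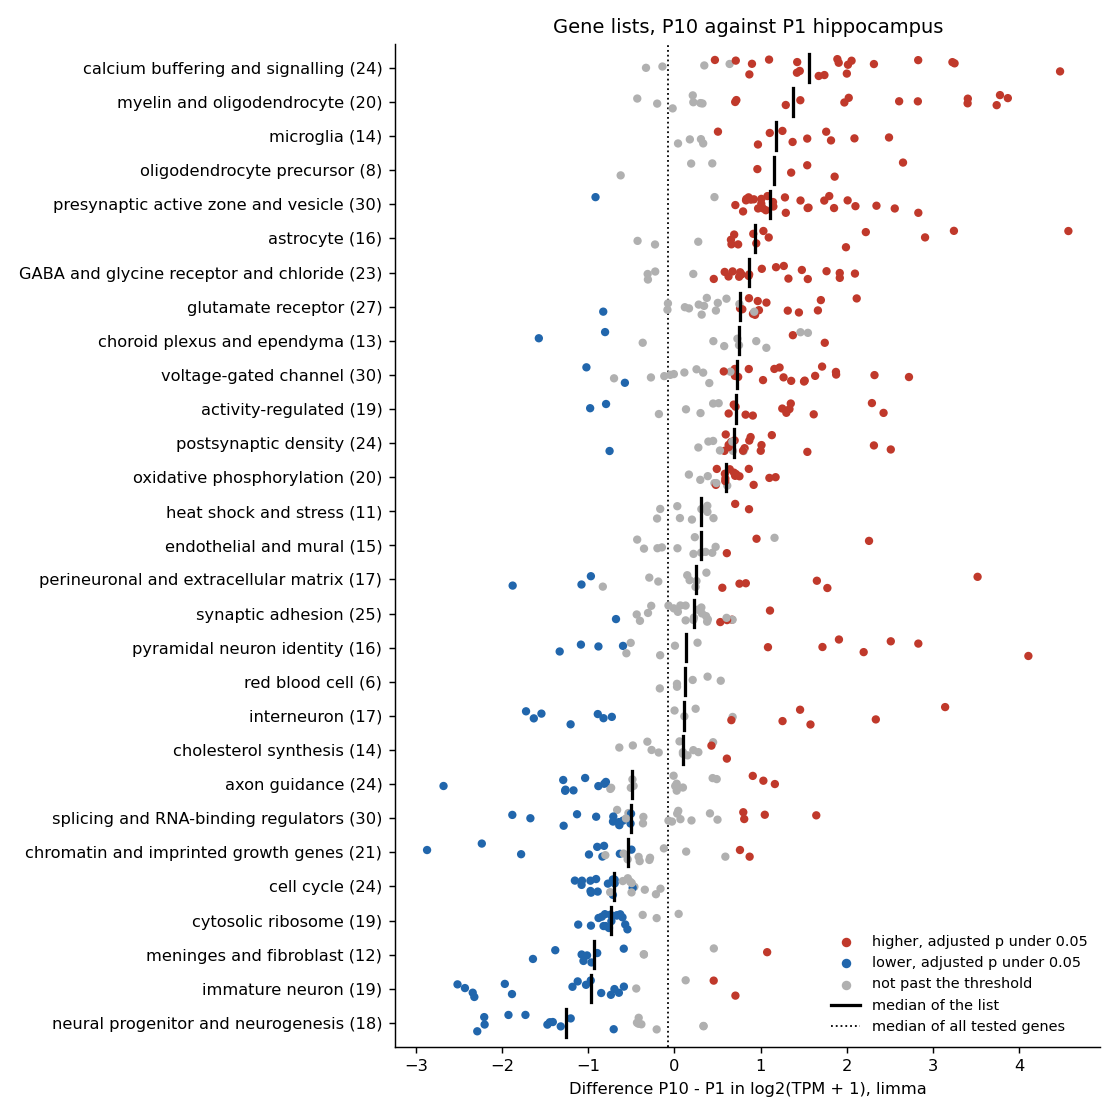
Difference between P10 and P1 in log2(TPM + 1) for every tested member of 29 gene lists (tested members in brackets), 1 point per gene. Red and blue points passed an adjusted p of 0.05 in limma, grey ones did not, black bars are list medians and the dotted line is the median of all tested genes, -0.07. In this main fit calcium signalling (1.57) and myelin (1.38) have the highest medians, and neural progenitors (-1.26) the lowest. These ranks were not kept in every other fit.

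Of 30 tested genes of the active zone and synaptic vesicle, 28 were higher and 1 was lower, with a median difference of 1.11. Slc17a7, the vesicular glutamate transporter of cortical and hippocampal excitatory neurons, was at 36.9 and 27.8 TPM at P1 and 244 and 224 TPM at P10. Snap25, the plasma membrane SNARE of vesicle fusion, was at 321 and 326 TPM at P1 and 1107 and 1058 TPM at P10. Syp, an integral vesicle protein, was at 160.0 and 149 TPM at P1 and 544 and 576 TPM at P10, and Syn2, which tethers vesicles to actin, at 78.4 and 61.8 TPM at P1 and 301 and 303 TPM at P10. In each of these the libraries of a stage lay close together and far from the other stage. The exception in sign was Rims3, a small member of the active-zone Rim family chosen here after its values were seen, at 29.8 and 24.7 TPM at P1 and 14.3 and 13.6 TPM at P10 (-0.92, adjusted p 0.00314). Its relative Rims2 did not pass the test, with 24 and 31.7 TPM at P1 and 34 and 43.5 TPM at P10 (adjusted p 0.0751).

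Of 24 tested members of the postsynaptic density, 16 were higher and 1 was lower, with a median of 0.69. Without P10 replicate 2, 10 were higher. Camk2a rose by 2.51 (SE 0.19, adjusted p 2.75e-05), and its endogenous inhibitor Camk2n1 was at 34.3 and 31.8 TPM at P1 and 91.9 and 105 TPM at P10. Dlg4, which encodes the scaffold PSD-95, was at 107 and 116 TPM at P1 and 223 and 191 TPM at P10, and the scaffold Homer2 at 12.6 and 12.8 TPM at P1 and 28.8 and 29 TPM at P10. The Shank3 scaffold did not pass, with 20.1 and 20.4 TPM at P1 and 29.9 and 20.4 TPM at P10, and P10 replicate 2 lay at the level of the P1 libraries. Dlgap4, a guanylate kinase-associated scaffold named after its values were seen, was lower, at 126 and 129 TPM at P1 and 68 and 82.8 TPM at P10 (adjusted p 0.0109, and 0.0823 without P10 replicate 1).

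Among 27 tested glutamate receptor genes 13 were higher and 1 was lower, with a median of 0.76, and 8 were higher without P10 replicate 2. The NMDA receptor subunit Grin2a, whose share grows with age and which shortens the receptor current, was at 10.5 and 17.1 TPM at P1 and 37.6 and 53.3 TPM at P10, a rise of 1.67 (adjusted p 0.000793). Grin2b, the subunit that dominates early, was at 49 and 85.6 TPM at P1 and 89.4 and 109.7 TPM at P10 and did not pass (0.60, adjusted p 0.0651). The 2 stages did not overlap for either gene, and for Grin2b P1 replicate 2 lay close to P10 replicate 1. Whether the changes of Grin2a and Grin2b differed was not tested. Grin1, the obligatory subunit, was at 23.4 and 20.9 TPM at P1 and 44.4 and 72 TPM at P10, and Grin2c rose from 0.24 and 0.338 to 4.42 and 4.76 TPM. The AMPA receptor auxiliary subunit Cacng8 was at 17.3 and 14.6 TPM at P1 and 58 and 50.1 TPM at P10. The kainate receptor subunit Grik2, named after its values were seen, fell by 0.83 (adjusted p 0.0252, and 0.0672 to 0.116 without P1 replicate 2, P10 replicate 1 or P10 replicate 2).

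For inhibition, 19 of 23 tested genes of GABA and glycine receptors and chloride transport were higher, with a median of 0.86. Slc12a5, which encodes the chloride extruder KCC2, was at 16.3 and 16.7 TPM at P1 and 65.1 and 65.4 TPM at P10, a 3.95-fold rise (log2 difference 1.92, SE 0.16, adjusted p 4.8e-05). Slc12a2, the chloride importer NKCC1, was at 23.6 and 28.5 TPM at P1 and 19.1 and 22.5 TPM at P10 and did not pass (-0.31, adjusted p 0.155). The libraries of each stage agreed closely for the extruder, and the ranges for the importer lay next to each other. Gabbr2, a subunit of the metabotropic GABA-B receptor, was at 29.7 and 23.5 TPM at P1 and 75.5 and 75.6 TPM at P10, and the glycine receptor beta subunit Glrb at 64.8 and 87.2 TPM at P1 and 219 and 225 TPM at P10.

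Of 30 tested voltage-gated channel genes 18 were higher and 2 lower, with a median of 0.72. The sodium channel beta subunit Scn2b was at 6.45 and 7.77 TPM at P1 and 44.4 and 61.7 TPM at P10. Kcna1, a delayed rectifier of axons, was at 3.7 and 3.5 TPM at P1 and 15.4 and 16.3 TPM at P10, and Kcnq5, which carries M-type current, at 8.23 and 9.29 TPM at P1 and 28.9 and 33.2 TPM at P10. The 2 lower genes were calcium channel pore subunits, named after their values were seen. Cacna1c, an L-type channel, fell by 0.58 (adjusted p 0.0219, and 0.0722 to 0.12 without P1 replicate 1, P10 replicate 1 or P10 replicate 2). Cacna1h, a T-type channel, fell by 1.02 (adjusted p 0.021, and 0.112 to 0.142 without P1 replicate 1 or P10 replicate 2).

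Calcium buffering and signalling had the highest median of all lists in the main fit, 1.57, with 20 of 24 tested genes higher. The rank was not kept in every fit. With a pseudocount of 0.1 TPM the myelin list had a higher median (1.88 against 1.57). The same held in the 4 P1 and P10 libraries alone (1.97 against 1.57) and without P10 replicate 2 (1.48 against 1.45). Hpca, the calcium sensor hippocalcin, was at 106 and 81.1 TPM at P1 and 721 and 612 TPM at P10. Prkcc, the table's symbol for the neuronal protein kinase C gamma, was at 7.36 and 5.14 TPM at P1 and 55.9 and 81 TPM at P10. Nrgn, the calmodulin-binding postsynaptic protein neurogranin, was at 54.6 and 46.8 TPM at P1 and 260.5 and 251 TPM at P10, and Ncald, another calcium sensor, at 111 and 112 TPM at P1 and 413 and 528 TPM at P10. These rises ranged from 2.06 to 3.25 on the log2 scale.

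Activity-regulated genes were higher in 12 of 19 tested cases and lower in 2, with a median of 0.71. Arc, an immediate early gene that acts at synapses, was at 2.31 and 1.72 TPM at P1 and 13.7 and 13.6 TPM at P10. Bdnf, a secreted growth factor, was at 9.06 and 8.17 TPM at P1 and 26.4 and 30.7 TPM at P10, and the prohormone convertase Pcsk1 at 3.56 and 6.26 TPM at P1 and 26.7 and 33.6 TPM at P10. The early transcription factor Junb rose by 1.30. Among the early-response genes Dusp1, a phosphatase of MAP kinases, fell by 0.98 (adjusted p 0.00244). Ier2 fell by 0.79 (adjusted p 0.0266, and 0.0841 to 0.129 without P1 replicate 1, P10 replicate 1 or P10 replicate 2), and both were named after their values were seen.

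Of 25 tested synaptic adhesion genes, 4 were higher and 1 was lower, which is no larger a share than in all genes tested, with a median of 0.23. The count of higher genes was 1 without P1 replicate 1, 8 without P1 replicate 2, 2 without P10 replicate 1 and 1 without P10 replicate 2, and 2 were lower without P1 replicate 1. Cbln2, a secreted linker of neurexins to postsynaptic receptors, was at 16.4 and 23.2 TPM at P1 and 42 and 44.6 TPM at P10. Lrrtm2 and Lrfn2 were also higher, by 0.61 and 0.53, and neither passed in all fits with 1 library left out (0.0697 to 0.222 without P1 replicate 1, P10 replicate 1 or P10 replicate 2 for Lrrtm2, 0.0946 to 0.205 without P1 replicate 1, P1 replicate 2, P10 replicate 1 or P10 replicate 2 for Lrfn2). Flrt1 fell by 0.68 (adjusted p 0.0147, and 0.0666 to 0.0752 without P10 replicate 1 or P10 replicate 2). Lrfn2 was named after its values were seen.

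Of 17 tested extracellular matrix genes 6 were higher and 3 lower, the latter no larger a share than in all genes tested. Hapln1, the link protein that fixes proteoglycans to hyaluronan in perineuronal nets, was at 3.29 and 4.5 TPM at P1 and 51.7 and 57.9 TPM at P10. Tnr, the tenascin of mature nets, was at 5.14 and 7.31 TPM at P1 and 16.3 and 28.2 TPM at P10, and Sparcl1, an astrocyte protein that promotes synapse formation, at 319 and 446 TPM at P1 and 1212 and 1381 TPM at P10. The hyaluronan synthase Has2 went the other way, with 11.8 and 14.5 TPM at P1 and 3.76 and 2.08 TPM at P10. Tnc, the tenascin of immature tissue, fell by 0.97 (adjusted p 0.0254, and 0.0637 to 0.155 without P1 replicate 2, P10 replicate 1 or P10 replicate 2). Thbs1, a thrombospondin, fell by 1.08 (adjusted p 0.00607). Both were named after their values were seen.

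Most tested genes of the 4 glial lists rose. Of 20 tested oligodendrocyte genes 13 were higher, with a median of 1.38. Mbp rose by 3.87 (SE 0.27, adjusted p 1.99e-05). Mobp, another myelin protein, was at 1 and 0.395 TPM at P1 and 14.1 and 33.8 TPM at P10. For both genes P10 replicate 2 was well above P10 replicate 1, and the P1 libraries stayed far lower. Gpr17, a receptor of cells that are leaving the precursor state, was at 2.66 and 3.63 TPM at P1 and 43.3 and 41.9 TPM at P10, with close P10 replicates. Bcas1, which marks newly formed oligodendrocytes, was at 2.97 and 4 TPM at P1 and 32.9 and 64.5 TPM at P10, and the phosphodiesterase Cnp at 20.8 and 24.4 TPM at P1 and 82.7 and 109 TPM at P10. Among 8 precursor genes 5 were higher, including the sialidase Neu4 at 0.11 and 0.0825 TPM at P1 and 5.16 and 6.72 TPM at P10 and the matrilin Matn4 at 2.34 and 1.4 TPM at P1 and 10.5 and 8.17 TPM at P10. The proteoglycan Cspg4 did not pass, with 2.84 and 3.29 TPM at P1 and 4.96 and 4.09 TPM at P10.

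Astrocyte genes were higher in 13 of 16 tested cases, with a median of 0.93. Aqp4, the water channel of astrocyte endfeet, was at 20.9 and 31.9 TPM at P1 and 208 and 194 TPM at P10. Slc1a2, the main glutamate transporter, was at 72.7 and 95.8 TPM at P1 and 382 and 404 TPM at P10, and the neurotensin receptor Ntsr2 at 2.75 and 3.2 TPM at P1 and 38.5 and 34.7 TPM at P10. Gfap, the intermediate filament of astrocytes and radial glia, was at 103 and 134 TPM at P1 and 214 and 169 TPM at P10, a rise of 0.69 that was smaller and less firm (adjusted p 0.015, and 0.0807 to 0.113 without P1 replicate 1 or P10 replicate 1). Fgfr3 did not pass, with 34.7 and 31.7 TPM at P1 and 42.1 and 38.7 TPM at P10. Microglial genes were higher in 10 of 14 tested cases, with a median of 1.18. The purinergic receptor P2ry12 was at 6.84 and 10.1 TPM at P1 and 50.4 and 52.4 TPM at P10, Siglech at 2.5 and 3.81 TPM at P1 and 17.7 and 15.3 TPM at P10, and the scavenger-like receptor Fcrls at 10.0 and 14.5 TPM at P1 and 45.2 and 41.6 TPM at P10. All 14 microglial genes were higher in P1 replicate 2 than in P1 replicate 1, and their sum was 287 and 346 TPM at P1 and 611 and 584 TPM at P10. The count of higher genes was 8 without P1 replicate 1, 10 without P1 replicate 2, 9 without P10 replicate 1 and 7 without P10 replicate 2.

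Of 15 endothelial and mural genes 3 were higher, a share near that of all genes, namely the organic anion carrier Slco1a4 at 6.22 and 5.99 TPM at P1 and 30.6 and 35.6 TPM at P10, the pericyte gene Rgs5 at 85.7 and 79.2 TPM at P1 and 179 and 144 TPM at P10, and Flt1, a receptor for vascular growth factor, by 0.61 (adjusted p 0.018, and 0.0609 to 0.0936 without P1 replicate 1, P10 replicate 1 or P10 replicate 2). Of 12 meningeal and fibroblast genes 8 were lower and 1, the proteoglycan Dcn at 63.5 and 58 TPM at P1 and 143 and 116 TPM at P10, was higher. Without P10 replicate 2, 5 were lower, and without P1 replicate 1, 2 were higher. The list summed to 1226 and 1119 TPM at P1 and to 713 and 628 TPM at P10. Slc6a13, a GABA and taurine carrier of the meninges, was at 27.9 and 33.6 TPM at P1 and 9.77 and 8.53 TPM at P10, and the retinoic acid enzyme Aldh1a2 at 15.9 and 17 TPM at P1 and 6.75 and 4.77 TPM at P10. In the choroid plexus and ependyma list 2 genes were higher and 2 lower. The cilia genes Foxj1 at 19.4 and 18.3 TPM at P1 and 6.3 and 5.09 TPM at P10 and Enkur at 16.5 and 17.3 TPM at P1 and 9.46 and 9.03 TPM at P10 fell, and Tmem212 at 3.22 and 1.76 TPM at P1 and 13.4 and 8.06 TPM at P10 and Kl at 0.522 and 0.715 TPM at P1 and 2.24 and 4.42 TPM at P10 rose. Without P10 replicate 1, 9 of 13 were higher. Otx2 was at 3.5 and 2.83 TPM at P1 and 0.52 and 5.81 TPM at P10 and did not pass. The beta globin Hbb-b1 was at 541 and 409.8 TPM at P1 and 690.2 and 678 TPM at P10 and did not pass either (adjusted p 0.0686).

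**Figure D2:**
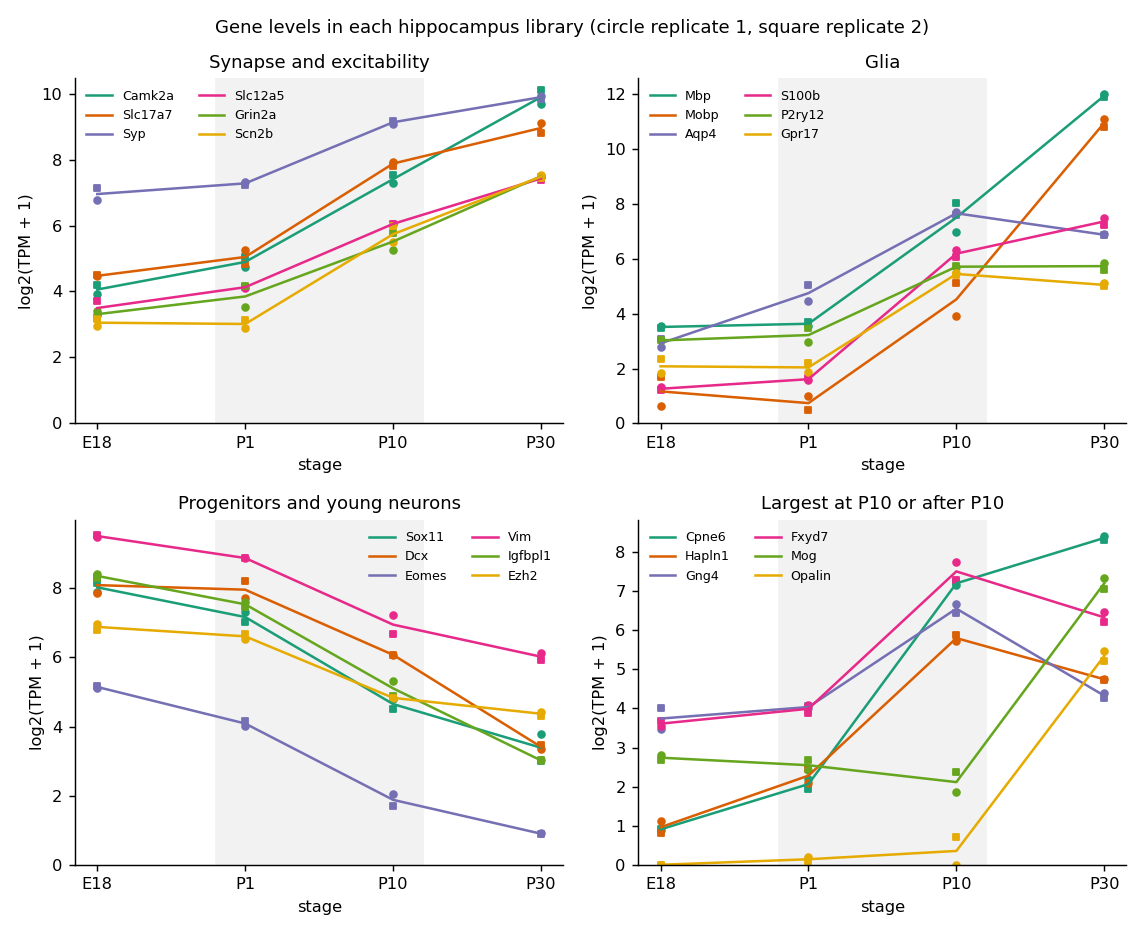
Gene levels as log2(TPM + 1) in each hippocampus library at E18, P1, P10 and P30, with lines through the means and the P1 to P10 interval shaded. Synaptic and most glial genes climb across the shaded interval, progenitor and young-neuron genes decline, Gng4, Fxyd7 and Hapln1 are highest at P10, and Mog and Opalin stay low until P30.

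Most tested genes of neurogenesis and of young neurons fell. Of 18 tested progenitor genes 11 were lower, with the lowest median of all lists in the main fit, -1.26. With a pseudocount of 5 TPM the progenitor median was -0.68, above the -0.85 of the immature neuron list. Eomes, the transcription factor of intermediate progenitors, was at 15.1 and 17 TPM at P1 and 3.13 and 2.28 TPM at P10, and Insm1, which drives their formation, at 19.4 and 14.9 TPM at P1 and 3.34 and 2.13 TPM at P10. The intermediate filaments Vim and Nes were at 469.9 and 468 TPM at P1 and 149 and 101 TPM at P10 and at 45 and 57.9 TPM at P1 and 14.1 and 15.3 TPM at P10, in that order. Among 24 cell cycle genes 14 were lower, with a median of -0.70. The replication helicase subunit Mcm6 was at 55.5 and 53.4 TPM at P1 and 29.4 and 25.1 TPM at P10 and the mitotic cyclin Ccnb1 at 21.1 and 21.6 TPM at P1 and 10.8 and 10.0 TPM at P10. The proliferation marker Mki67 did not pass, with 8.25 and 14.4 TPM at P1 and 6.7 and 7.07 TPM at P10 (adjusted p 0.0892), nor did the G1 cyclin Ccnd1, with 32.9 and 30.7 TPM at P1 and 29.9 and 26.7 TPM at P10. The cell cycle count was 8 without P1 replicate 2, 9 without P10 replicate 1 and 6 without P10 replicate 2.

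Of 19 immature neuron genes 15 were lower and 2 higher, with a median of -0.97. Sox11, a transcription factor of newborn neurons, was at 157 and 130.4 TPM at P1 and 26.9 and 21.6 TPM at P10, and its relative Sox4 at 297 and 202 TPM at P1 and 52.1 and 43.2 TPM at P10. Dcx, the microtubule-binding doublecortin of migrating neurons, was at 209 and 294 TPM at P1 and 66.4 and 66.4 TPM at P10. Igfbpl1 was at 194 and 176 TPM at P1 and 38.8 and 28.8 TPM at P10, and the basic helix-loop-helix factor Nhlh2 at 23.2 and 27 TPM at P1 and 4.74 and 3.71 TPM at P10. The means of these 5 genes were 5.92-fold, 5.23-fold, 3.79-fold, 5.48-fold and 5.94-fold higher at P1, in that order. The 2 higher genes were Gap43 and Tubb2a. Gap43, a growth cone protein, was at 873 and 782 TPM at P1 and 1159 and 1108 TPM at P10, a rise of 0.46 (adjusted p 0.0205, and 0.0797 to 0.114 without P1 replicate 2, P10 replicate 1 or P10 replicate 2). The beta tubulin Tubb2a, named after its values were seen, was higher by 0.71 (adjusted p 0.0232, and 0.0698 to 0.176 without P1 replicate 1, P1 replicate 2 or P10 replicate 2), and Stmn2, a microtubule regulator of growth cones, did not pass, with 1017 and 1089 TPM at P1 and 1218 and 1089.9 TPM at P10.

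Outside the lists, genes with a mean of at least 10 TPM at P1 were among the largest falls. Gpc2, a glypican of young neurons, was at 67.1 and 73.4 TPM at P1 and 8.16 and 4.62 TPM at P10, an 11-fold difference (log2 difference -3.31, SE 0.22, adjusted p 1.91e-05). Mex3a, an RNA-binding protein of progenitors, was at 42.7 and 43.9 TPM at P1 and 7.2 and 4.82 TPM at P10, and Cxcr4, the chemokine receptor that guides migrating neurons, at 163 and 139 TPM at P1 and 29.7 and 21.4 TPM at P10. Cntn2, an axonal adhesion protein, was at 74.7 and 64 TPM at P1 and 15.4 and 9.89 TPM at P10, and Ttc28 at 28 and 35.1 TPM at P1 and 4.31 and 5.29 TPM at P10. As in every called gene, the stages did not overlap in these 5.

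Axon guidance genes were lower in 9 of 24 tested cases, with a median of -0.50. Draxin, listed as 2610109H07Rik, a repulsive cue for forebrain commissures, was at 29.5 and 31.7 TPM at P1 and 5.67 and 2.63 TPM at P10. The semaphorin co-receptors Nrp1 and Nrp2 were at 237 and 279 TPM at P1 and 118 and 93.2 TPM at P10 and at 94.7 and 83.6 TPM at P1 and 38.8 and 34.2 TPM at P10, and the ligand Sema3f at 6.86 and 5.7 TPM at P1 and 1.82 and 2.22 TPM at P10. The 3 higher members, named after their values were seen, did not hold in every fit with 1 library left out. Robo2, a Slit receptor, rose by 1.17 (adjusted p 0.0484, and 0.0536 to 0.223 without P1 replicate 1, P1 replicate 2, P10 replicate 1 or P10 replicate 2), Unc5c, a netrin receptor, by 0.91 (adjusted p 0.0832 to 0.189 without P1 replicate 1, P10 replicate 1 or P10 replicate 2), and the ephrin Efna5 by 1.03 (adjusted p 0.0977 to 0.282 without P1 replicate 1, P1 replicate 2 or P10 replicate 2).

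Of 16 pyramidal genes 7 were higher and 4 lower. Calb1, the calbindin of granule and superficial pyramidal cells, was at 18.8 and 19.1 TPM at P1 and 77.5 and 70.5 TPM at P10. The 4 lower genes were transcription factors of differentiating pyramidal cells, named after their values were seen. Tbr1 was at 18.3 and 17 TPM at P1 and 8.48 and 9.79 TPM at P10, Neurod2 at 119 and 76 TPM at P1 and 49.4 and 27.8 TPM at P10, Neurod6 at 412 and 449 TPM at P1 and 292 and 276 TPM at P10 and Zbtb20 at 119 and 234 TPM at P1 and 81.5 and 74.9 TPM at P10. Without P10 replicate 2, 1 of the pyramidal genes was lower, and Zbtb20 (adjusted p 0.0648 without P10 replicate 2), Neurod2 (0.0535 to 0.0736 without P1 replicate 1 or P10 replicate 2) and Neurod6 (0.057 without P10 replicate 2) were not called. Of 17 interneuron genes 6 were higher and 7 lower. The neuropeptide Vip was at 0.91 and 1.54 TPM at P1 and 16.5 and 20.6 TPM at P10 and the calcium buffer Pvalb at 0.1 and 0.146 TPM at P1 and 3.87 and 5.62 TPM at P10, while the lineage factors Dlx1 and Dlx2 were at 108 and 109 TPM at P1 and 35.8 and 32.8 TPM at P10 and at 5.28 and 4.56 TPM at P1 and 1.03 and 0.58 TPM at P10. The GABA-synthesising enzyme Gad1 was at 67.4 and 59.5 TPM at P1 and 97.1 and 107 TPM at P10 and did not pass (adjusted p 0.0651).

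Of 20 tested nuclear genes of oxidative phosphorylation 14 were higher, with a median of 0.60. The complex I subunit Ndufs1 was at 92.6 and 109.9 TPM at P1 and 182 and 202 TPM at P10, cytochrome c (Cycs) at 179 and 142 TPM at P1 and 369 and 321 TPM at P10, and the ATP synthase subunit Atp5b at 1638 and 1714 TPM at P1 and 2754 and 2711 TPM at P10. The count was 7 without P1 replicate 2, 6 without P10 replicate 1 and 7 without P10 replicate 2. Of 19 cytosolic ribosomal protein genes 16 were lower, with a median of -0.73. Rplp0 was at 2609 and 2133 TPM at P1 and 1252 and 1158 TPM at P10 and Rpl7 at 3312 and 2902 TPM at P1 and 1889 and 1624 TPM at P10. All 19 were lower in replicate 2 than in replicate 1 at both stages. The count of lower ribosomal genes was 7 without P1 replicate 1 and 5 without P10 replicate 2. Of 14 cholesterol synthesis genes 2 were higher, Sc4mol by 0.61 (adjusted p 0.061 to 0.189 without P1 replicate 1, P1 replicate 2, P10 replicate 1 or P10 replicate 2) and Sc5d by 0.43 (adjusted p 0.137 to 0.174 without P1 replicate 1, P10 replicate 1 or P10 replicate 2). Of 11 stress genes 2 were higher, Hsph1 by 0.87 and Chac1 by 0.71, and neither call held with each library left out in turn. The shares of higher genes in the cholesterol and stress lists were near that of all genes tested.

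RNA-binding regulators were lower in 12 of 30 tested cases and higher in 4. Ptbp1, the splicing repressor that keeps neuronal exons out in progenitors, was at 44.5 and 56.1 TPM at P1 and 22.2 and 22.4 TPM at P10. The mRNA-binding proteins Igf2bp1 and Igf2bp2 were at 4.18 and 3.86 TPM at P1 and 0.444 and 0.283 TPM at P10 and at 3.96 and 6 TPM at P1 and 0.978 and 0.728 TPM at P10. The 4 higher genes follow. Mbnl2, a muscleblind splicing factor, was at 23.3 and 31.7 TPM at P1 and 82 and 92.9 TPM at P10, Adarb1, an RNA-editing enzyme, at 16.6 and 20.5 TPM at P1 and 36.6 and 42.1 TPM at P10, Rbfox3, the nuclear antigen NeuN, at 27.3 and 19.9 TPM at P1 and 41.5 and 41.2 TPM at P10, and Rbfox1 at 59.2 and 52.9 TPM at P1 and 93.6 and 105 TPM at P10. The call for Rbfox1 was lost in 1 fit (adjusted p 0.058 without P10 replicate 2), and the last 3 were named after their values were seen. Without P10 replicate 2, 6 genes were lower. Chromatin and imprinted growth genes were lower in 9 of 21 cases and higher in 2. Ezh2, the methyltransferase of Polycomb repressive complex 2, was at 92.6 and 101 TPM at P1 and 27.3 and 27.7 TPM at P10 (-1.78, SE 0.14, adjusted p 3.15e-05), and its partner Suz12 at 46.3 and 47.4 TPM at P1 and 26.4 and 25.2 TPM at P10. The imprinted RNA H19 was at 83 and 58.2 TPM at P1 and 9.8 and 7.59 TPM at P10, the growth inhibitor Cdkn1c at 47.2 and 44.3 TPM at P1 and 8.43 and 9.42 TPM at P10 and the growth factor Igf2 at 49.3 and 43.2 TPM at P1 and 22.6 and 26.2 TPM at P10. The 2 higher genes were the DNA methyltransferase Dnmt3a, by 0.76 (adjusted p 0.135 without P10 replicate 2), and Peg3, by 0.87 (adjusted p 0.0515 to 0.246 without P1 replicate 1, P10 replicate 1 or P10 replicate 2), both named after their values were seen.

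The step from P1 to P10 was set against the neighbouring steps. The steps differ in length, the one from P10 to P30 being the longest, and changes were not scaled to time. Counts and step differences are therefore not rates. From E18 to P1, 193 genes were higher (1.31%) and 88 lower (0.599%), and from P10 to P30, 2562 were higher (17.4%) and 1894 lower (12.9%). A contrast of the 2 steps that share the P10 libraries, which takes the sharing into account, asked where the signed change from P1 to P10 differed from that from P10 to P30. The first step was the higher one for 1208 genes (8.22%) and the lower one for 1291 (8.79%). With libraries scaled to equal medians these counts were 1920 and 1004. They were 1202 and 1829 with satellite, Ttr, globin and ribosomal models left out and TPM rescaled. The balance between the 2 counts thus depended on the scaling. Without P10 replicate 1 the counts were 320 and 277, and without P10 replicate 2 they were 220 and 133.

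The 5 genes named next were highest at P10. Gng4, a G protein gamma subunit, was at 15.1 and 15.8 TPM at P1, 101 and 86 at P10 and 19.9 and 18.3 at P30 (step difference 4.75, SE 0.34, adjusted p 0.000194). Fxyd7, a regulator of the sodium pump, was at 16.1 and 13.8, then 212 and 154, then 86.9 and 72.8 TPM. Hapln1 was at 26 and 25.7 TPM at P30, below its P10 level (step difference 4.57, SE 0.34, adjusted p 0.000213). The intermediate filament peripherin (Prph) was at 2.49 and 2.38, then 13.9 and 16.3, then 2.64 and 2.05 TPM, and Tmem91 at 6.55 and 5.38, then 53.7 and 55.9, then 21.3 and 17.3 TPM. In all 5 genes both P10 libraries were above every library of the other 3 stages. Cpne6 had the larger rise before P10 on the log2 scale (step difference 3.98) and went on to 339 and 319 TPM at P30.

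Several myelin genes had the opposite pattern. Mog, on the outermost myelin surface, was at 4.38 and 5.36 TPM at P1 and 2.61 and 4.2 TPM at P10 and at 161 and 133 TPM at P30 (step difference -5.52, SE 0.37, adjusted p 0.000184). Mal, a lipid raft protein of myelin, was at 4.27 and 2.99, then 3.53 and 5.29, then 525 and 486 TPM. Opalin was at 0.138 and 0.0692 at P1, 0 and 0.635 at P10 and 43.1 and 36.4 TPM at P30, and the tight-junction gene Cldn11 at 18.5 and 20.0, 11.4 and 23.9 and 383 and 346 TPM. These genes were near their P1 level at P10, in libraries in which Mbp and Mobp were already several-fold up. Over the whole myelin list, 3 of 20 genes had the higher step before P10 and 8 the higher step after it, and the medians of the 2 steps were 1.38 and 3.02. Among the 8 precursor genes the higher step was before P10 for 5. Of the 24 calcium genes 13, and of the 30 presynaptic genes 10, had the higher step before P10, and 2 of the presynaptic genes the higher step after it. Over all genes tested these shares were 8.22% and 8.79%. The step counts within lists were not repeated with a library left out. The step counts over all genes fell with either P10 library left out.

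Against the step from E18 to P1, the step from P1 to P10 was the higher one for 451 genes (3.07%) and the lower one for 285 (1.94%). After satellite, Ttr, globin and ribosomal models were left out and TPM rescaled, the counts were 478 and 479. The fits without 1 library gave 154 to 257 and 62 to 156 genes, with the lowest counts without P1 replicate 1 and without P1 replicate 2, in that order. S100b (step difference 4.22, adjusted p 0.000628), Cpne6 (3.98, 0.000628), and Lynx1 (3.79, 0.000628) were among those whose main rise came after P1.

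CircRNAs were summed per library. The totals were 12232 and 13000.03 RPM at P1 and 9787 and 9556 RPM at P10, a mean 23.3% lower at P10. Both P10 totals lay below both P1 totals, but with 2 libraries against 2 the exact permutation test (two-sided) cannot go below p = 0.333, which it gave. The E18 totals were 11493 and 10826 RPM, and the P30 totals 17782 and 18414 RPM, so that P10 had the lowest totals of the 4 stages. The number of different circRNAs with at least 1 read was 8320 and 6318 at P1 and 6613 and 7222 at P10 (exact permutation p = 1). At an equal 15927 reads per library the numbers were 6425 and 6318 at P1 and 6373 and 6361 at P10. The numbers of the stages overlapped at this depth.

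**Figure D3:**
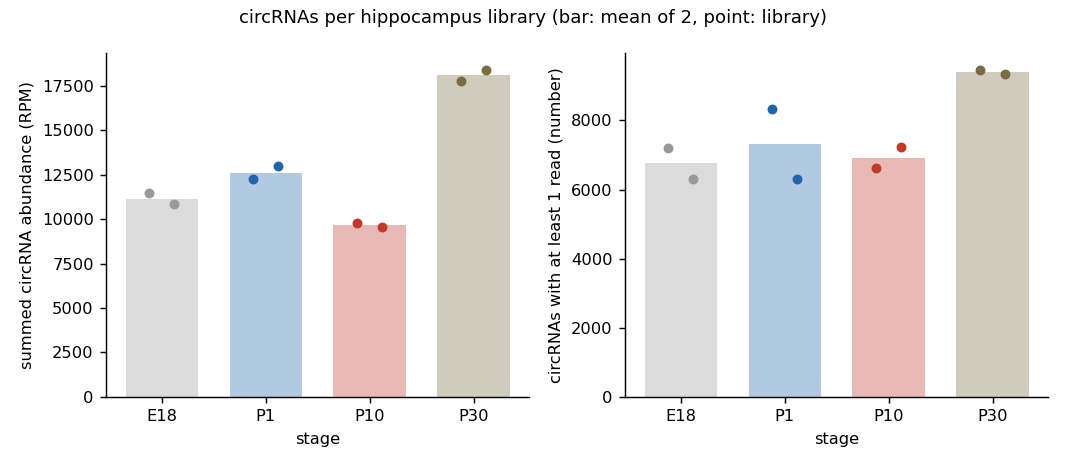
Summed circRNA abundance (left, RPM) and the number of circRNAs with at least 1 read (right) in each hippocampus library, with bars at the mean of 2. The P10 totals, 9787 and 9556 RPM, are the lowest of the 4 stages, while the numbers at P1 and P10 overlap.

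Single circRNAs mostly changed downwards. Of 1556 tested, 63 were lower at P10 (4.05%) and 18 higher (1.16%), with a median difference of -0.21. When the libraries were scaled to equal circRNA totals the median moved to 0.08, and 35 were lower and 39 higher. The balance between lower and higher circRNAs thus depended on the scaling. The edgeR quasi-likelihood test on recovered reads called 92 lower and 28 higher without TMM, and 46 and 49 with TMM, and DESeq2 called 12 and 8. Of the 63 lower circRNAs 61 were called by edgeR without TMM, 43 by edgeR with TMM and 12 by DESeq2. Of the 18 higher ones the numbers were 16, 18 and 6. With 1 library left out, the number of the 63 that remained called was 26 without P1 replicate 1, 20 without P1 replicate 2, 33 without P10 replicate 1 and 22 without P10 replicate 2. For the 18 higher ones these numbers were 13, 8, 3 and 3. From P10 to P30, 222 circRNAs were higher (14.3%) and 6 lower (0.386%).

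A selection of 13 circRNAs that passed, and those of Homer1 and Rims2, which did not, are given with their back-splice junctions, because the junction is the sequence that separates a circRNA from the linear transcript of its host. Each line shows 30 bases of the circle, 5′ to 3′ on the transcript strand. The last 15 bases of the donor exon are in lower case and the first 15 bases of the acceptor exon in capitals. Positions are mm9, and the sequences and exon numbers are those of GENCODE M21 transcripts (GRCm38) whose exon edges fit the deposited span, which was found for 1254 of the 1556 circRNAs.
Ezh2 exons 2 to 3, chr6:47526535-47527666: cgcgggactagggagAATAATCATGGGCCA
Ezh2 exons 2 to 8, chr6:47501731-47527666: actgcttcctacatcAATAATCATGGGCCA
Ezh2 exons 2 to 15, chr6:47490676-47527666: cggggctctaaaaagAATAATCATGGGCCA
Ttc3 exons 2 to 10, chr16:94605519-94614781: tatggggcagtttagGACTGTGCAGCATGG
Zfp609 exon 2, chr9:65642429-65643302: gtcaagtctgaaaagCAATGATGTTGTCCA
Aff3 exons 3 to 5, chr1:38591751-38593791: cccaagcaggcagagTGTCTATGAACCGGA
Rps6ka5 exons 4 to 5, chr12:101854207-101857851: tttgtggccgatgaaATTATATAAATGGTG
Epha3 exons 4 to 5, chr16:63652041-63653404: caactaatcaggctgCTTGTCGACCAGGCT
Epha5 exon 3, chr5:84760253-84760916: atggtacctgccaagTGGGAAGAGATTGGT
Arhgap32 exons 4 to 10, chr9:31960625-32015850: cagtgccaaaaccagGTTACCCTTCACAAA
Atxn1 exons 2 to 5, chr13:45830484-46051944: tgctgttggcagaggAAGTATCCTGCACCG
Kcnj6 exon 3, chr16:95053906-95054826: tggtggaagccacagCTAACGTCTTGGAAG
Acer3 exons 2 to 7, chr7:105392459-105414757: ttatattgttacatgGGAATACAGTGAGTA
Homer1 exons 2 to 5, chr13:94111711-94126034: gccatttccacatagGGAGCAACCTATCTT
Rims2 exons 16 to 19, chr15:39398489-39448056: aactcagccaaaccgGTGCTATGGATATAG

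Ezh2 gave 3 of the 63 lower circRNAs, and all 3 carry the same acceptor, AATAATCATGGGCCA, the start of exon 2, joined to 3 different donor exons. The circle of exons 2 and 3 was the most abundant of them, with 60.8 and 72.6 RPM at P1 and 17.3 and 17.6 RPM at P10 (210 and 66 reads over the stage). It fell by 1.90 (SE 0.24, adjusted p 2.59e-05). The circle that ends in exon 15 was at 32.2 and 36.7 RPM at P1 and 6.34 and 12.2 RPM at P10 (-1.89, adjusted p 0.000599). The circle that ends in exon 8 was at 5.53 and 6.53 RPM at P1 and 0.576 and 0.489 RPM at P10 (-2.57, adjusted p 0.00675, and 0.0542 to 0.0654 without P1 replicate 2 or P10 replicate 2). The P1 and P10 libraries were far apart in each. The remaining 2 tested Ezh2 circRNAs start at another acceptor, TGTTCAGTCACCAGT, and did not pass. The Ezh2 gene itself fell by 1.78, and the ratio of the abundant circle to its host differed by -0.12 (adjusted p 0.911). Circle and gene thus moved by nearly the same amount.

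Ttc3, which encodes a ubiquitin ligase, gave the circRNA with the smallest p. It was at 38.2 and 41.6 RPM at P1 and 9.22 and 6.85 RPM at P10, with 127 and 30 reads, and fell by 2.25 (SE 0.27, adjusted p 1.78e-05). At E18 it was at 45.2 and 44.9 RPM and at P30 at 12.2 and 11.6 RPM, so the low level was kept. The Ttc3 gene differed by -0.10 and did not pass. The circle-to-host ratio differed by -2.14 and did not pass either (adjusted p 0.115).

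Aff3, a transcription elongation factor, had a circle at 8.54 and 11.4 RPM at P1 and 0.576 and 0 RPM at P10, with 31 reads against 1 (-3.68, adjusted p 0.000599). Where a library shows 0 RPM, its depth allows up to 1.47 to 2.45 RPM in the 4 libraries (3 reads), for counting error. Rps6ka5, a kinase that acts on chromatin, had a circle at 10.6 and 5.71 RPM at P1 and 0 and 0.489 RPM at P10 (28 and 1 reads, adjusted p 0.00037). Epha3, an ephrin receptor that guides axons, had one at 12.1 and 12.2 RPM at P1 and 1.15 and 0.978 RPM at P10 (39 and 4 reads, adjusted p 0.000599). These 3 and the Ttc3 circle, like the 2 more abundant Ezh2 circles, passed with each library left out in turn. The circle of Zfp609 exon 2, in the transcript of a zinc finger protein, was at 55.3 and 65.3 RPM at P1 and 19 and 24.4 RPM at P10 (-1.45, adjusted p 0.00148, and 0.0581 without P10 replicate 1). Zbtb20, the transcription factor of hippocampal pyramidal cells, had 2 lower circles, the larger at 30.6 and 28.6 RPM at P1 and 14.4 and 12.2 RPM at P10 (adjusted p 0.0113, and 0.077 to 0.113 without P1 replicate 1, P1 replicate 2 or P10 replicate 2) and the smaller at 6.03 and 9.79 RPM at P1 and 1.15 and 0.978 RPM at P10 (adjusted p 0.0335, and 0.0686 to 0.207 without P1 replicate 1, P1 replicate 2, P10 replicate 1 or P10 replicate 2). The larger one was also not called at equal circRNA totals (-0.75, adjusted p 0.0935).

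Epha5, an ephrin receptor, had a single-exon circle at 21.6 and 33.5 RPM at P1 and 10.4 and 7.33 RPM at P10 (adjusted p 0.00699, and 0.109 to 0.155 without P1 replicate 2 or P10 replicate 2), and the gene differed by -0.01. Cacna1c had one at 30.6 and 29.4 RPM at P1 and 15.6 and 10.3 RPM at P10 (adjusted p 0.0179, and 0.095 to 0.174 without P1 replicate 1, P1 replicate 2 or P10 replicate 2). The circle of the GABA-A receptor gene Gabra2 was at 4.02 and 3.26 RPM at P1 and 1.15 and 0 RPM at P10, at the edge of the threshold and called by edgeR neither with nor without TMM (limma adjusted p 0.0494, and 0.133 to 0.314 without P1 replicate 1, P1 replicate 2 or P10 replicate 2). Rmst, a long noncoding RNA of neurogenesis, had a circle at 23.6 and 16.3 RPM at P1 and 8.06 and 6.36 RPM at P10 (adjusted p 0.00689, and 0.095 to 0.0987 without P1 replicate 1 or P10 replicate 2), and its host fell by 1.38. Ntng2, a netrin-G adhesion protein, had one at 8.54 and 8.98 RPM at P1 and 1.73 and 0 RPM at P10, while it had no read in any E18 or P30 library (limma adjusted p 0.00979). Its call was lost without P1 replicate 2 or P10 replicate 2. Without P1 replicate 1 it was not tested, as it fell under the filter on reads. Mpzl1 (7.03 and 15.5 RPM at P1 and 2.3 and 0.489 RPM at P10, adjusted p 0.00522, and 0.125 to 0.128 without P1 replicate 2 or P10 replicate 2) and Tmeff1 (7.54 and 7.35 RPM at P1 and 0 and 3.42 RPM at P10, adjusted p 0.0202, and 0.0924 to 0.301 without P1 replicate 1, P1 replicate 2 or P10 replicate 1) were lower too.

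Of the 18 higher circRNAs, that of Arhgap32, a GTPase-activating protein of the postsynaptic density, had the largest rise, from 0.502 and 0 RPM at P1 to 9.79 and 4.4 RPM at P10 (1 read against 26) and on to 24.9 and 31.1 RPM at P30. The difference was 3.19 (SE 0.60, adjusted p 0.00148, and 0.0743 without P10 replicate 1), and the gene differed by -0.09. Atxn1, the polyglutamine protein ataxin-1, had a circle at 3.01 and 1.63 RPM at P1 and 16.1 and 10.3 RPM at P10 (adjusted p 0.000855), which passed with each library left out in turn, and the gene rose by 1.05. The circle of the ceramidase gene Acer3 was at 1.51 and 1.63 RPM at P1 and 8.64 and 9.78 RPM at P10 (adjusted p 0.00345, and 0.0622 without P10 replicate 2). That of Kcnj6, a G protein-gated potassium channel, was at 2.01 and 8.98 RPM at P1 and 12.1 and 26.9 RPM at P10, with the P1 replicates far apart (adjusted p 0.0132, and 0.227 to 0.278 without P1 replicate 1 or P10 replicate 2). That of Strbp, an RNA-binding protein, was at 6.03 and 5.71 RPM at P1 and 22.5 and 15.6 RPM at P10 (adjusted p 0.00275, and 0.0599 without P10 replicate 1). The circle of Fut8, a fucosyltransferase, was at 1 and 0.816 RPM at P1 and 7.49 and 6.36 RPM at P10 (adjusted p 0.00796, and 0.0713 to 0.0886 without P10 replicate 1 or P10 replicate 2). In the 6 circRNAs of Arhgap32, Atxn1, Acer3, Kcnj6, Strbp and Fut8 both P30 libraries were above the mean of the P10 libraries. A rise to P30 was not particular to these 6. The circRNA totals also rose from P10 to P30, and 222 of all tested circRNAs were called higher (14.3%) and 6 lower (0.386%). The circles of Atxn1, Acer3, Kcnj6 and Strbp stood at 24.3 and 18.3, at 31.9 and 33, at 37.7 and 54.4 and at 45.8 and 55 RPM at P30, in that order. The circle of Mettl6, a tRNA methyltransferase, was at 2.51 and 0 RPM at P1 and 8.64 and 6.85 RPM at P10 (adjusted p 0.00784, and 0.099 to 0.173 without P1 replicate 2, P10 replicate 1 or P10 replicate 2). That of Kcnt2, a sodium-activated potassium channel, was at 5.02 and 0.816 RPM at P1 and 11.5 and 10.8 RPM at P10 (adjusted p 0.0128, and 0.119 to 0.253 without P1 replicate 2, P10 replicate 1 or P10 replicate 2). The protease gene Tasp1 had one at 8.04 and 0.816 RPM at P1 and 15 and 9.78 RPM at P10 (adjusted p 0.0414, and 0.159 to 0.563 without P1 replicate 2, P10 replicate 1 or P10 replicate 2). The kinase gene Stk39 had one at 3.01 and 3.26 RPM at P1 and 9.22 and 10.3 RPM at P10, and its call was lost with any of the 4 libraries left out (adjusted p 0.0437, and 0.111 to 0.186 without P1 replicate 1, P1 replicate 2, P10 replicate 1 or P10 replicate 2).

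**Figure D4:**
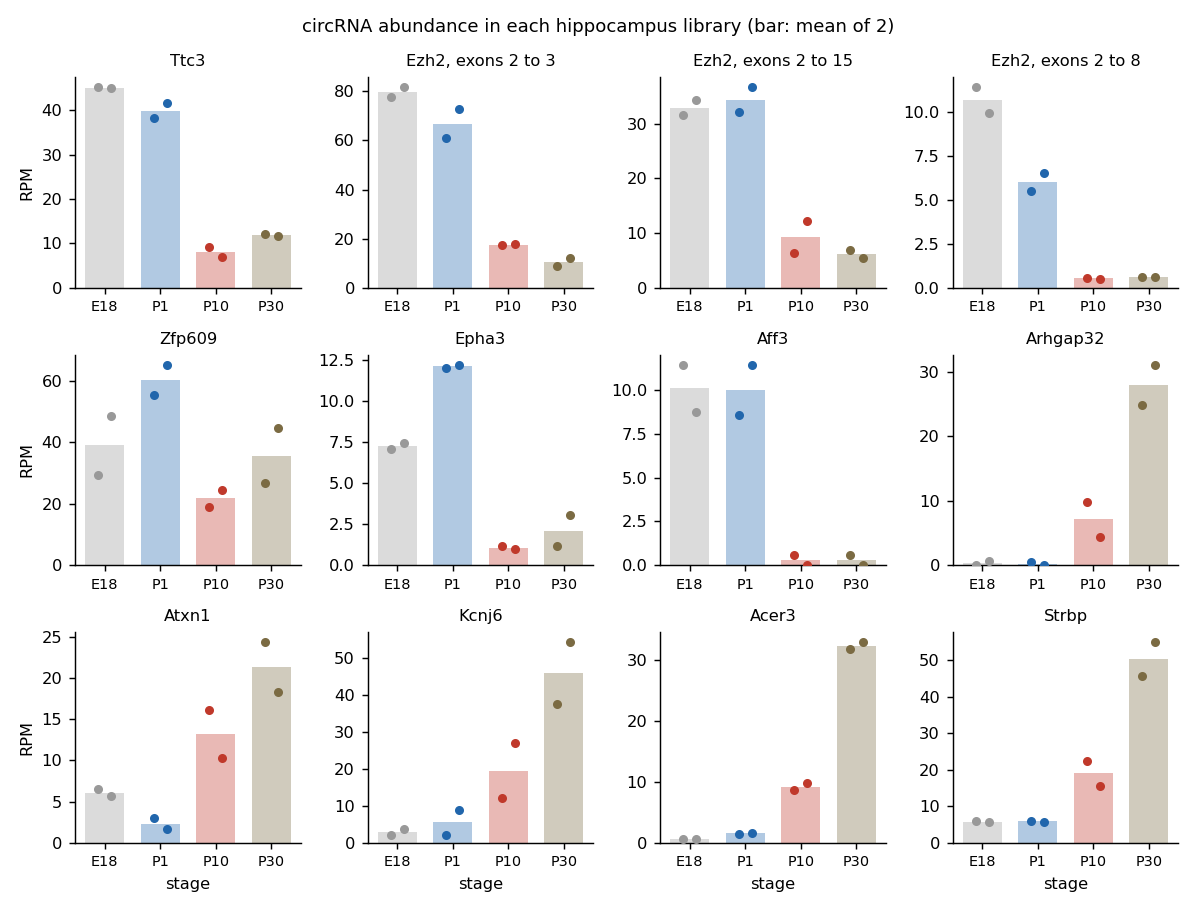
Abundance (RPM, separate axes from 0) of 12 named circRNAs in each hippocampus library at E18, P1, P10 and P30, with bars at the mean of 2. The Ezh2, Ttc3, Epha3 and Aff3 circles drop between P1 and P10 and stay low. Those of Arhgap32, Atxn1, Kcnj6, Acer3 and Strbp are higher at P10 and higher again at P30, a stage at which the circRNA totals are also higher.

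Several circRNAs known for their abundance in brain did not pass. Tulp4, the most abundant of those named, was at 228 and 281 RPM at P1 and 165 and 207 RPM at P10 (-0.45, adjusted p 0.0871). The circle of Rims2, an active-zone scaffold, was at 18.6 and 19.6 RPM at P1 and 22.5 and 26.9 RPM at P10 (adjusted p 0.447) and that of Rims1 at 10.0 and 8.98 RPM at P1 and 15 and 18.6 RPM at P10 (adjusted p 0.205). The Homer1 circle, of a postsynaptic scaffold gene that rose by 0.63, was at 7.03 and 10.6 RPM at P1 and 8.06 and 5.87 RPM at P10, with overlapping stages (adjusted p 0.675). Its difference, -0.31, had the opposite sign at equal circRNA totals (0.05). The circle of the kinase Hipk3 was at 26.6 and 31 RPM at P1 and 32.3 and 30.8 RPM at P10, and that of Rtn4 at 27.6 and 32.6 RPM at P1 and 16.7 and 15.6 RPM at P10 (adjusted p 0.0591).

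CircRNAs of synaptic hosts were seen as groups. Of all 1556 tested circRNAs, limma called 18 higher (1.16%) and 63 lower (4.05%). At these shares a group of 8 to 17 circRNAs may hold no call, so a lack of calls does not set a group apart. At an unadjusted p under 0.05 in limma, 113 of all tested circRNAs were higher and 237 lower. For the presynaptic list, 16 circRNAs of 5 hosts were tested and none was called by limma, by edgeR without TMM or by DESeq2. At an unadjusted p under 0.05, 1 was higher, and edgeR with TMM called 1 higher. Their median difference was 0.30, against a median of 1.28 for their 5 hosts. In these host medians each host was counted once, however many circRNAs it had. At equal circRNA totals the median of the circRNAs was 0.62. For the postsynaptic list, 17 circRNAs of 7 hosts gave no call in limma, 1 higher and 4 lower at an unadjusted p under 0.05, 2 lower in edgeR without TMM, and no call in edgeR with TMM or DESeq2. The median was -0.48, and -0.15 at equal totals, against 0.63 for hosts. Calcium signalling hosts had 8 circRNAs with a median of 0.95, and 1.20 at equal totals, and 1.74 for hosts, with no call in limma, 3 higher at an unadjusted p under 0.05 2 higher in edgeR with TMM, and no call in edgeR without TMM or DESeq2. Of 8 circRNAs of chromatin and imprinted genes, 4 were lower, 3 of them from Ezh2.

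The direction of a circRNA went with that of its host more often than against it. Of the 63 lower circRNAs, whose hosts were all tested, the host was lower for 38 (60.3%), higher for 2 and not called for 23. Among all tested circRNAs 18.8% had a lower and 21.2% a higher host. Of the 18 higher circRNAs, 16 had a tested host, which was higher for 9 and not called for 7. The 2 lower circRNAs with a higher host, named after their values were seen, came from Schip1 (3.52 and 4.08 RPM at P1 and 0 and 0.489 RPM at P10) and Dcp2. Hosts were next grouped by their own call in the same libraries, so the size of the host medians follows in part from the grouping. In these medians a host counted once for each of its circRNAs. The 323 circRNAs of higher hosts had a median difference of 0.35, while their hosts had 0.88. The 287 of lower hosts had -0.71 and their hosts -0.73, and the 915 of hosts that were not called had -0.26 and -0.07. At equal circRNA totals the circRNA medians were 0.65, -0.40 and 0.04, so the sign for hosts that were not called depended on the scaling. Genes and circRNAs were measured on scales with different pseudocounts.

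**Figure D5:**
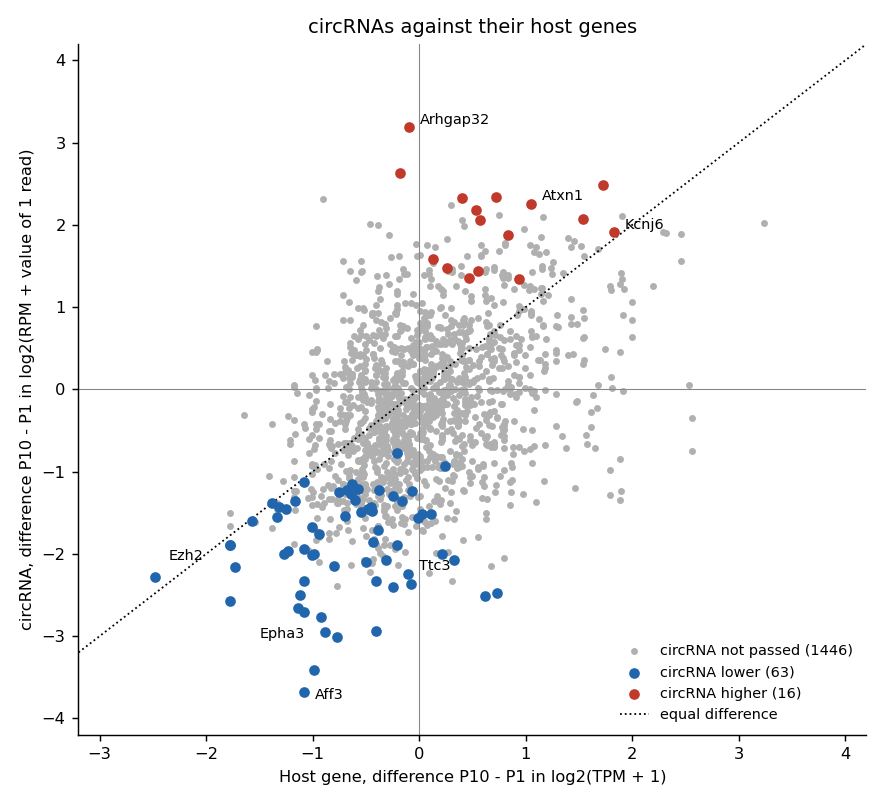
Difference between P10 and P1 of each tested circRNA (log2 of RPM plus the value of 1 read) against that of its host gene (log2(TPM + 1)), for the 1525 circRNAs with a tested host. The 63 lower circRNAs (blue) lie mostly over negative host differences, the 16 higher ones with a tested host (red) mostly over positive ones, and the Ttc3 and Arhgap32 circles lie near a host difference of 0.

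In the fit of circle-to-host ratios, 2 of 1528 were higher (0.131%) and 5 lower (0.327%), with a median of -0.24. The higher ones were Arhgap32 (3.28, adjusted p 0.0474) and Gm4924 (3.22), and the lower ones Sv2b (-3.31), Chn1 (-3.24), Schip1 (-3.21), Adcy2 (-3.13) and Dcp2, all but Arhgap32 named after their values were seen. Sv2b, a vesicle protein gene, had 4 and 2 circRNA reads, and its gene rose by 2.56. Without P1 replicate 1, 9 ratios were higher and 3 lower. Without P1 replicate 2, P10 replicate 1 or P10 replicate 2, no ratio was called by limma, with 36, 31 and 45 higher and 157, 131 and 109 lower at an unadjusted p under 0.05.

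The median genomic span of the lower circRNAs was 3889 bases, against 12744.5 for the higher and 9840.5 for all tested circRNAs. A single exon made up 23.8% of the lower, 27.8% of the higher and 12.6% of all tested circRNAs. The called circRNAs were also read more deeply, with medians of 137 and 127.5 reads over the 8 libraries for lower and higher ones against 36 for all.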

How the data were processed

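RNA of hippocampus was analysed in 8 libraries from 4 stages (E18, P1, P10, P30), and P10 was set against P1. Reads were handled with CASAVA 1.8.2, TopHat2 2.0.6 and Cufflinks 2.2.1, per the submitters' processing notes, which name the mm9 build. The authors deposited gene TPM for 24601 gene models and back-splice reads in RPM for 28482 circRNAs. The authors also deposited 2 further circRNA tables with positions and exon blocks, whose other values were used for coordinates, strand and exons. The circRNA caller and the denominator of RPM are not given in the sources used here. All circRNA values were whole multiples of the value of 1 read (tolerance 0.1), so reads were recovered. A further 20 columns of the mouse tables belong to samples that were not used.

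Genes with a mean of at least 1 TPM and circRNAs with at least 20 reads over the 8 libraries were tested with limma 3.58.1 (R 4.3.3) on log2 values, with pseudocounts of 1 TPM and 0.578 RPM, all 4 stages sharing the spread (4 residual degrees of freedom) and Benjamini-Hochberg adjustment over all features. Ratios of circRNA to host were tested likewise, and recovered reads also with edgeR 4.0.16 and DESeq2 1.42.0. Scripts were tested on simulated data. Alternatives changed the pseudocount, filter, scaling, libraries and block, and a filter of 40 reads was chosen after seeing the data. The members and lists were chosen with earlier results of these data known. Named genes were the 12 largest differences in each direction with a mean of at least 10 TPM, per list the 4 genes of smallest and the 2 of largest p at most, and a set of textbook genes. Named circRNAs were the 10 largest differences in each direction, the most abundant circRNA of listed hosts, and up to 2 per list. Step contrasts gave the 6 largest differences in each direction. Same-numbered replicates share only a number in the labels. Some genes and circRNAs that the rule takes are not reported here.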

Additional observations from a re-analysis of the deposited data

How the results depend on the processing

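With 1 library left out, genes numbered 1584 to 2391 higher and 1231 to 2809 lower. For the step against P10 to P30, the counts ran from 220 to 1162 higher and from 133 to 1857 lower, and equal medians gave 1920 higher and no filter 798 lower. For the step against E18 to P1, they ran from 154 to 257 higher and from 62 to 156 lower, no filter gave 185 and 111, and rescaling 479 lower. CircRNA counts ran from 3 to 20 higher and from 22 to 40 lower. They were 8 and 35 with a pseudocount 5 times smaller, 29 and 98 with one 5 times larger, and 39 and 35 at equal totals. For higher circRNAs edgeR gave 28 without TMM and 49 with it, and DESeq2 gave 8 higher and 12 lower. Without a floor on reads limma called 0 higher and 1 lower, with 540 and 952 at an unadjusted p under 0.05. Ratios ran from 0 to 9 higher and from 0 to 3 lower with 1 library left out. The larger pseudocount gave 20 and 116 ratios, and at least 40 reads 1 and 1. With the smaller pseudocount limma called 0 and 0 (44 and 132 at an unadjusted p under 0.05), without a floor 0 and 0 (466 and 1267), at equal totals 0 and 0 (115 and 101), and in the 4 libraries alone 0 and 0 (28 and 87). The causes were not tested.

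To look for a pairing, the difference of replicate 1 minus replicate 2 was correlated between stages. Between P1 and P10 these differences correlated at 0.186 over genes and 0.0445 over circRNAs. Over all 6 pairs of stages the gene value was 0.0538 to 0.375, not above 0.1 in every pair. The labels give no pairing, and the libraries were treated as sharing only a number. With the replicate block, 2063 genes were lower in the step against P10 to P30, and 919 higher and 773 lower in the step against E18 to P1. The block gave 32 higher and 100 lower circRNAs and 1 higher ratio.

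The difference in the number of circRNAs was 29 when circRNAs with 20 reads were counted, and -1402.5 to 599.5 with 1 library left out. With 1 library left out, Ttr ran from -2.68 to 5.78 (-0.53 without P1 replicate 2), Otx2 from -1.45 to 0.71, and Epha5 from -0.38 to 0.36. Epha5 was at 0.016 with equal medians and 0.043 without P10 replicate 1. The Homer1 circRNA was at 0.050 at equal totals, 0.039 with edgeR and TMM, and 0.033 with DESeq2. Of 154 named genes, 28 lost a call in at least 1 alternative and 3 changed sign. Of the 33 named circRNAs 27 were called. All 27 lost the call without a floor on reads, 21 in another alternative and 20 with 1 library left out. CircRNAs with under 20 reads over the 8 libraries were kept out of the main fit by a filter set beforehand. They entered only the fit without a floor on reads, in which limma called 0 higher and 1 lower. With 2 libraries a stage, their changes remain undecided.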
